A study of Mus musculus with 12 samples.

Results

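The 43 genes described here are core genes of the mammalian cell cycle, chosen by symbol: each Ensembl identifier of the deposited count table was paired with a symbol through a mouse gene annotation, and the counts of the 43 symbols were scaled by library size to the unit known as CPM. All 43 were among the 55357 identifiers of the table, and all 43 were among the 15804 genes that passed the filter on low counts. They fall into 16 genes of G1 to S phase (cyclins D and E, replication licensing, deoxynucleotide supply) and 27 genes that act from S phase to cytokinesis. RNA came from 12 hearts of male mice, 3 in each of 4 groups: C57BL/6J wild-type animals (WT) or mice labelled CD163-/- (KO), each given either a sham operation or TAC (transverse aortic constriction), a surgical narrowing of the aorta that loads the left ventricle with pressure. All animals were operated at 8 weeks of age, and TAC was tied over a 27-gauge needle. Sham animals are therefore the surgical control in each genotype, and no unoperated heart was analysed here. The labels name neither the deleted part of Cd163 nor the time from surgery to collection, and they do not say which animal gave which library, so any p-value here reflects only how far these samples scatter. Cd163 encodes the haemoglobin-haptoglobin scavenger receptor of tissue macrophages.

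Cyclins are regulatory subunits that switch on cyclin-dependent kinases in a fixed order. D and E cyclins carry cells through G1 and release E2F transcription factors, which drive the genes of DNA replication. Cyclin A and the B cyclins with Cdk1 then carry cells through S phase, G2 and mitosis, and the late genes are held silent in resting cells by the MuvB complex at a promoter element called CHR, often next to a CCAAT box bound by NF-Y. Cardiomyocytes of adult mice rarely divide, so most dividing cells in an adult heart are of other types, and in a whole heart more dividing cells cannot be told apart from more RNA of these genes per cell.

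The start regions of 6 genes are shown because results below turn on them: Cdk1, Top2a, Kif11 and Ccnb1 were high in KO sham hearts, and Cenpf and Cenpa were low there. Each is the 250 bases before the annotated transcription start in RefSeq, build GRCm38.p6, written 5′ to 3′ on the strand of the gene. Capitals mark matches on either strand to CHR letters (TTTGAA or TTCGAA), to CCAAT, or to E2F letters (TTTCGCGC, TTTGGCGC, TTTCCCGC or TTTGCCGC).
Cdk1, chr10:69352913-69353162, minus strand: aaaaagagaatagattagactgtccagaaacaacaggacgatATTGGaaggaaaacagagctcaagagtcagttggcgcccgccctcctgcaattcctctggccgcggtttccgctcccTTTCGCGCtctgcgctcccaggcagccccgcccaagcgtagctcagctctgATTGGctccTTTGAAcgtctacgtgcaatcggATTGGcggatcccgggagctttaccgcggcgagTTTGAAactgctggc
Top2a, chr11:99024190-99024439, minus strand: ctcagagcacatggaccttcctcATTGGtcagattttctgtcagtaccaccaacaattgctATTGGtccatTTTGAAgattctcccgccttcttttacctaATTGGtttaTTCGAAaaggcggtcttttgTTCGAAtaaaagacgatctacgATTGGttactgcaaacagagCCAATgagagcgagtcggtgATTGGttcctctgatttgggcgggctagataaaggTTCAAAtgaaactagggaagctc
Kif11, chr19:37376132-37376381, plus strand: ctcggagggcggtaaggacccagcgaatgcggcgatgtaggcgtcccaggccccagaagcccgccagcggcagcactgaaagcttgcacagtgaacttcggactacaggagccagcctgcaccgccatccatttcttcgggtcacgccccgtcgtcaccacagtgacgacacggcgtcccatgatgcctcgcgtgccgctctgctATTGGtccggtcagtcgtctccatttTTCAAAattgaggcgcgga
Ccnb1, chr13:100786487-100786736, minus strand: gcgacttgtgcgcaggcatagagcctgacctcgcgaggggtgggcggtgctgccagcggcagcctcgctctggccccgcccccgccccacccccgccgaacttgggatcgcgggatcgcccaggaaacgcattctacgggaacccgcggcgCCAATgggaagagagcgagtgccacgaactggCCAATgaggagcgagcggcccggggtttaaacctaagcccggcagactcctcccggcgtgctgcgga
Cenpf, chr1:189688087-189688336, minus strand: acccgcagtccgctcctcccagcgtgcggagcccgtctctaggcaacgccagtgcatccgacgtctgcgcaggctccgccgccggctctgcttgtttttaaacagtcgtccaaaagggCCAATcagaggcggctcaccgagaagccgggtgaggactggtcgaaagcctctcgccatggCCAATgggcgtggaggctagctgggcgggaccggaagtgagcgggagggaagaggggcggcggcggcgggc
Cenpa, chr5:30666636-30666885, plus strand: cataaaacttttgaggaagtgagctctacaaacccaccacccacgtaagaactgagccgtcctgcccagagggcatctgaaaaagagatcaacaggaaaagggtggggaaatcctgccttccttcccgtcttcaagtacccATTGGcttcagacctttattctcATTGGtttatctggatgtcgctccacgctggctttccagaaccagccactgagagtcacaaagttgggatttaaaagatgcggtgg

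The Cdk1 region held CCAAT letters 208, 80 and 48 bases before the start, CHR letters 71 and 15 bases before it, and an E2F match 131 bases before it. The Kif11 region held 1 CCAAT match at 45 and 1 CHR match at 19 bases. The bases after its RefSeq start were found in no Kif11 transcript of the mouse gene annotation, unlike those of the other regions shown. The Kif11 distances therefore hold for the RefSeq start only. The Cenpf and Cenpa regions each held 2 CCAAT matches and no CHR or E2F letters, and the Ccnb1 region likewise held 2 CCAAT matches and no CHR letters. The RefSeq table gave a start region for 35 of the 43 genes; those without an entry were Ccna2, Ccnd1, Ccnd2, Ccne2, Mcm4, Tpx2, Aurkb and Kif20a. CCAAT letters stood in 28 of 35 regions (80.0%), against 37.5% of the 27025 genes of the table with an entry. CHR letters stood in 12 of 35 (34.3%) against 19.6%, and all 12 also held CCAAT letters, a pair found in 7.0% of all regions. Among the 23 late genes with an entry, 10 (43.5%) held CHR letters. E2F letters stood in 5 of 35 (14.3%) against 2.16%, 4 of them among the 12 genes of G1 to S phase (33.3%). No match of 1 motif overlapped a match of another. These are letter matches and no evidence of binding. Only the letters named above were searched, so absence of a match does not show absence of an element.

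Total counts ran from 14150109 to 22602225 per library. Cd163 stood at 13.7 to 29.5 CPM in the 6 WT libraries and at 3.14 to 4.6 CPM in the 6 KO libraries, so the genotype labels matched the targeted gene. 1 library went against its surgery label: KO sham replicate 1 resembled the KO TAC libraries, with 51.0% of its counts from the mitochondrial genome, against 30.5 to 31.6% in the other KO sham libraries and 44.0 to 51.3% in KO TAC. Results that rest on it are given with and without it. Among WT TAC hearts, replicate 3 stood apart in the cell cycle genes. Nppb, a natriuretic peptide of stretched heart muscle, was at 472, 546 and 533 CPM in WT TAC replicates 1, 3 and 5 against 211 to 234 CPM in WT sham, so replicate 3 did not differ from its group in that gene.

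The cell cycle genes were expressed at low levels. In WT sham hearts 15 of 43 had a mean under 1 CPM, 22 lay between 1 and 10 CPM, and 6 were at 10 CPM or more. The median over the 43 genes was 1.54 CPM, against 10.7 CPM over all tested genes. Per kilobase of exon, the WT sham levels were led by Pcna, the sliding clamp of the replication fork, at 11.1 CPM per kb, followed by Ccnd1 at 9.99, Ccnd2 at 9.89 and the centromeric histone gene Cenpa at 8.69. A wide gap followed, to Mcm4 at 1.99 CPM per kb. Cenpf, a large kinetochore protein, stood 8th at 1.58 ± 0.40 CPM per kb (SD, n = 3), while the kinetochore motor gene Cenpe, Ccnb1 and the checkpoint kinase Bub1 closed the order between 0.0842 and 0.0886 CPM per kb. Mki67, the proliferation marker Ki-67, stood 17th at 0.488 ± 0.0952 CPM per kb.

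Across the 4 groups the 27 late genes moved largely together and the 16 genes of G1 to S phase did not. The median over the 27 late genes of each library's log2 CPM (prior count 2) minus the WT sham mean was 1.12, 0.71 and 1.15 in KO sham replicates 1, 2 and 3. In WT TAC it was 1.25 and 1.29 in replicates 1 and 5 and −0.40 in replicate 3. In KO TAC it was 0.49, 0.84 and 0.99. All KO libraries and 2 of 3 WT TAC libraries thus stood above the 3 WT sham libraries, which lay between −0.18 and 0.18. The same median over the 16 genes of G1 to S phase lay between −0.20 and 0.40 in all 12 libraries, and over all tested genes between −0.01 and 0.03.

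**Figure D1:**
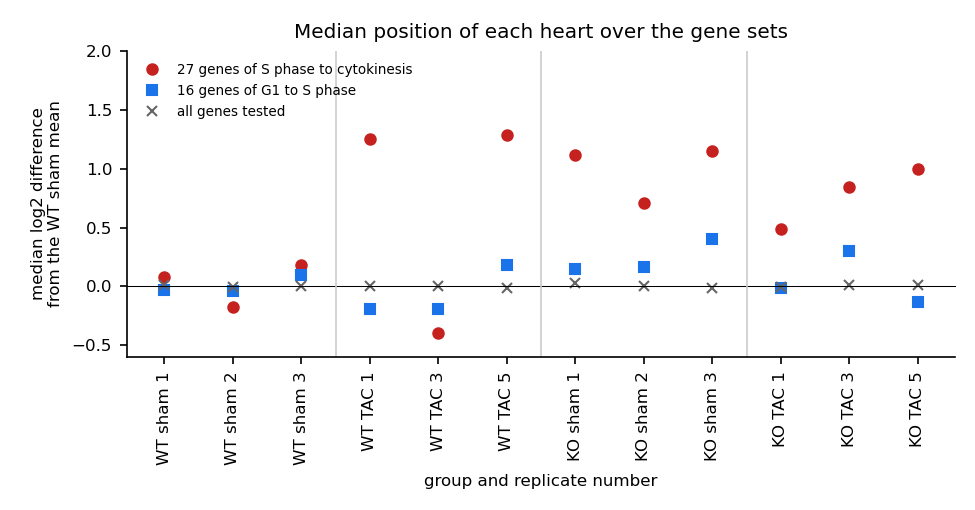
Each point is 1 heart (x axis: group and replicate number); the y axis is the median, over the 27 late genes (circles), the 16 genes of G1 to S phase (squares) or all tested genes (crosses), of log2 CPM minus the WT sham mean. The late genes sat near 0 in WT sham, between 0.49 and 1.15 in the 6 KO hearts, and at 1.25, −0.40 and 1.29 in WT TAC.

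**Figure D2:**
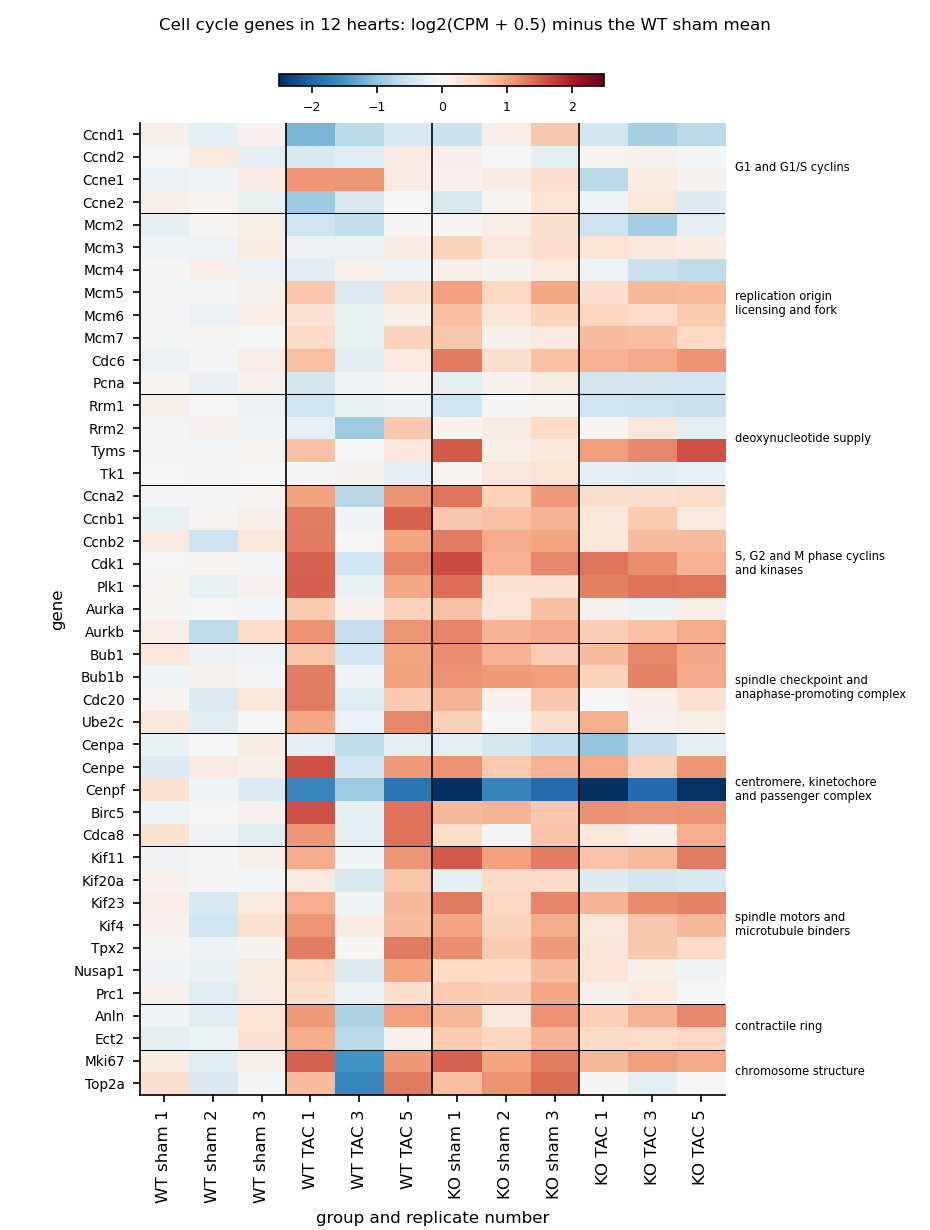
Colour gives log2(CPM + 0.5) minus the WT sham mean for each of the 43 genes (rows, in order of role, separated by lines) in each of the 12 libraries (columns); red is above and blue below the WT sham mean, and the scale ends at 2.5 in both directions. WT TAC replicate 3 lacks the red of replicates 1 and 5 across the late genes, and Cenpf is blue in all 9 libraries outside WT sham.

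KO against WT after sham compares the 2 genotypes without TAC. The KO sham hearts were not at the WT sham level in Nppb or Acta1, both higher in every WT TAC heart than in WT sham. Nppb stood at 409, 270 and 294 CPM in KO sham against 211 to 234 CPM in WT sham. Acta1 stood at 1389, 510 and 803 CPM in KO sham against 117 to 225 CPM in WT sham. In KO TAC, Nppb stood at 293, 320 and 197 CPM. The part of these differences in the results was not tested. In the edgeR quasi-likelihood test over all 12 libraries none of the 43 genes passed an adjusted p of 0.05, beside 0.00633% of all tested genes (1 gene). At an unadjusted p under 0.05 there were 19 of 43 on the higher side and 1 on the lower, against 8.96% and 4.57% of all tested genes. Without KO sham replicate 1 these were 15 and 2 of 43, beside 765 and 794 of the 16196 genes tested in that fit. DESeq2 called 2 of the 43, beside 1.31% of all tested genes, and limma-voom with sample weights called 25, beside 14.9%. The direction was one-sided: 39 of 43 fold changes lay above 0, with a median log2 fold change of 0.89 against 0.01 over all tested genes. For 27 of the 43 genes every KO sham library was above every WT sham library, a pattern shown by 12.2% of all tested genes, and for 2 genes (Cenpa and Cenpf) every one was below, against 10.4%. Without KO sham replicate 1 the first count was 31 of 43, beside 18.6% of all tested genes, and the median was 0.78. Limma-voom placed 23 of the 43 higher and 2 lower, against 7.38% and 7.49% of all tested genes.

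Cyclins and kinases of S phase, G2 and mitosis had 7 of 7 fold changes above 0, a median of 1.36, and no overlap between the libraries of the 2 genotypes in any of the 7. Cdk1, the kinase that starts mitosis, stood at 0.741, 0.772 and 0.696 CPM in WT sham and at 3.34, 1.77 and 2.34 CPM in KO sham libraries, a log2 difference of 1.73 ± 0.55 (SE) with an edgeR adjusted p of 0.278. Its lowest KO sham heart was above its highest WT sham heart. Without KO sham replicate 1 the largest log2 difference of any of the 27 late genes was 1.47. The median over these 27 genes was 1.22 with that library and 1.08 without it. Ccnb1, the B cyclin that binds Cdk1, stood at 0.265, 0.408 and 0.447 CPM in WT sham and at 0.887, 0.945 and 1.08 CPM in KO sham libraries (log2 1.36 ± 0.55, edgeR adjusted p = 0.331). The other members of the group are Ccna2, Ccnb2, Plk1 and the Aurora kinases Aurka and Aurkb, whose log2 differences lay between 0.89 and 1.56.

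Both genes of chromosome structure were higher in every KO sham heart. Mki67, which coats mitotic chromosomes, stood at 5.56, 3.81 and 5.37 CPM in WT sham and at 14.4, 10.1 and 12.6 CPM in KO sham libraries (log2 1.33 ± 0.54, 2.51-fold, edgeR adjusted p = 0.336). Top2a, the topoisomerase that untangles sister chromatids, stood at 3.71, 2.00 and 2.64 CPM in WT sham and at 4.91, 6.45 and 7.97 CPM in KO sham libraries (log2 1.22 ± 0.59, edgeR adjusted p = 0.383). For neither gene did KO sham replicate 1 decide the order, since replicates 2 and 3 alone were also above every WT sham library.

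Among 7 spindle motors and microtubule binders all 7 fold changes lay above 0 (median 1.17), and 6 of 7 had no overlap. Kif11, the bipolar kinesin that pushes spindle poles apart, stood at 1.22, 1.27 and 1.49 CPM in WT sham and at 4.78, 3.20 and 3.94 CPM in KO sham libraries (log2 1.57 ± 0.35, 2.97-fold, edgeR adjusted p = 0.192). It was the gene with the smallest p on the higher side, and DESeq2 gave it an adjusted p of 0.00791. Prc1, which bundles the midzone microtubules, stood at 2.17, 1.50 and 2.34 CPM in WT sham and at 3.41, 3.29 and 4.36 CPM in KO sham libraries (log2 0.88 ± 0.26, edgeR adjusted p = 0.265). The exception was Kif20a, a midzone kinesin, which ran from 1.29 to 1.48 CPM in WT sham and stood at 1.09 CPM in KO sham replicate 1, below that range, and at 2.10 and 2.11 CPM in replicates 2 and 3, above it.

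Spindle checkpoint genes had 4 of 4 fold changes above 0 (median 1.06) and 2 of 4 without overlap. Bub1b, the checkpoint protein BubR1, stood at 1.01, 1.18 and 1.04 CPM in WT sham and at 2.93, 2.79 and 2.76 CPM in KO sham libraries (log2 1.39 ± 0.38, edgeR adjusted p = 0.247). Its spread within each genotype was small beside the gap. Licensing and fork genes had 8 of 8 above 0 at a lower median of 0.42, and 5 of 8 without overlap. Mcm6, a subunit of the replicative helicase, stood at 7.94, 7.31 and 9.15 CPM in WT sham and at 14, 10.1 and 12.1 CPM in KO sham libraries (log2 0.57 ± 0.18, edgeR adjusted p = 0.279). Pcna and Mcm2 overlapped between the genotypes, with log2 differences of 0.03 ± 0.16 and 0.21 ± 0.24. The G1 cyclins, which respond to growth signals, showed no separation in any of 4 genes (median 0.11). Ccnd2 stood at 93.3, 108 and 77.6 CPM in WT sham and at 101, 91.1 and 77.6 CPM in KO sham libraries (log2 −0.05 ± 0.19).

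Cenpf ran against the rest. This kinetochore protein of G2 and mitosis stood at 31.2, 23.0 and 19.1 CPM in the WT sham hearts, 7.28, 12.7 and 6.43 CPM in WT TAC, 3.82, 7.15 and 5.90 CPM in KO sham, and 3.65, 5.87 and 3.93 CPM in KO TAC libraries. All 9 other hearts were below all 3 WT sham hearts. In KO against WT after sham it stood 4.30-fold lower, at −2.11 ± 0.32 (edgeR adjusted p = 0.0757). Leaving out KO sham replicate 1 it passed, and it fell by 1.90 on the log2 scale (edgeR adjusted p = 0.0348), as the only 1 of the 43 genes, beside 0.161% of all tested genes on the lower side. It also passed without WT TAC replicate 3 (edgeR adjusted p = 0.0392, beside 0.0246% of all tested genes called lower in that fit), without the filter on low counts (0.000287, beside 0.0686% called lower), with DESeq2 (7.42e-07) and with limma-voom (0.000137). It did not pass when any other single library was left out, or with library totals in place of TMM. Nor did it pass without mitochondrial transcripts, with the compared groups only or with a replicate block. With that block the smallest edgeR adjusted p among the 43 genes was 0.159. Cenpa, the histone variant that marks centromeres, stood at 45.0, 50.02 and 57.7 CPM in WT sham and at 43.4, 37.3 and 32.8 CPM in KO sham libraries (log2 −0.43 ± 0.20, edgeR adjusted p = 0.369). Both genes had WT sham levels far above those of the other centromere and passenger complex genes Cenpe, Birc5 and Cdca8, whose WT sham values lay under 1 CPM and whose log2 differences of 1.24, 1.19 and 0.61 were on the higher side.

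**Figure D3:**
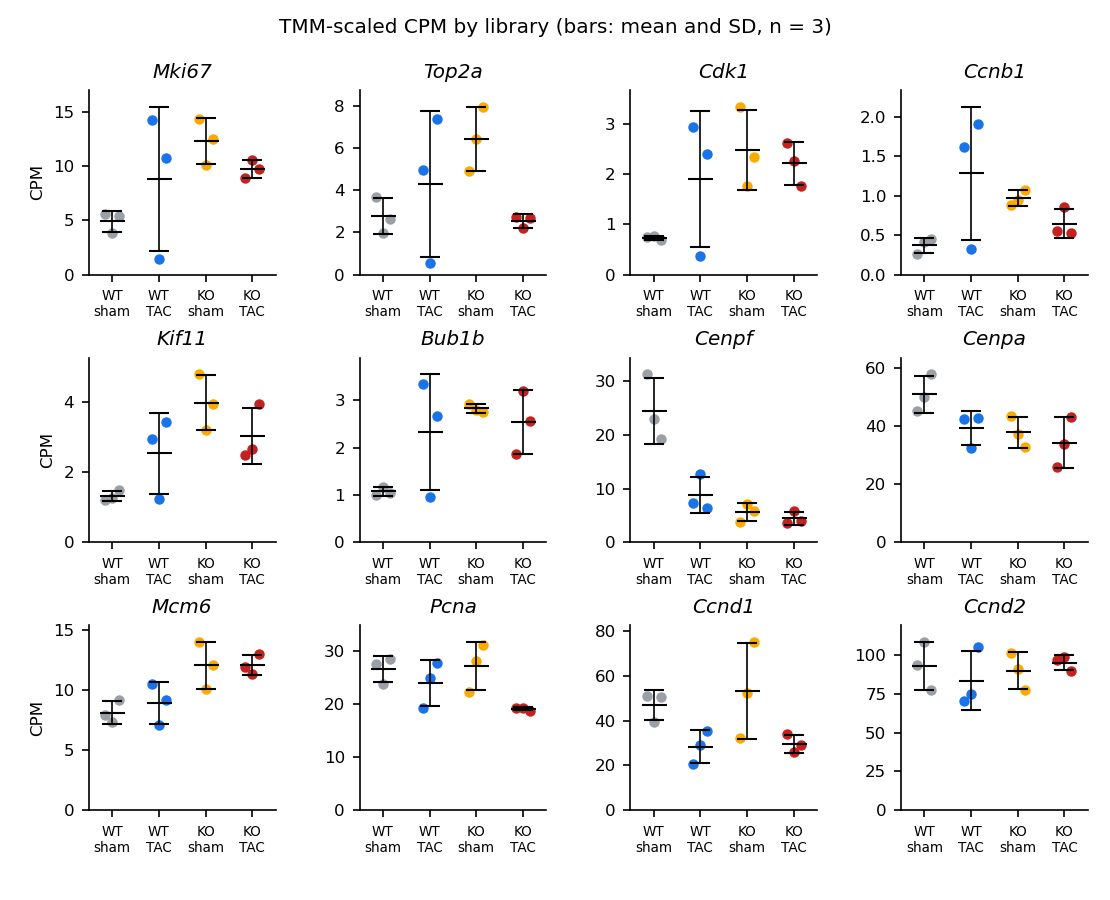
Each panel shows 1 gene, with TMM-scaled CPM on a linear y axis from 0 and the 4 groups on the x axis; points are single hearts, and the black bars are the mean and SD of 3. The late genes Mki67 to Bub1b are higher in the KO sham than in the WT sham hearts, Cenpf and Cenpa are lower, and 1 WT TAC heart lies at or below the WT sham level in the upper panels.

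TAC against sham in WT asks how the normal heart responds to pressure overload. No gene of the 43 passed the edgeR test over all libraries, beside 0.0316% of all tested genes (5 genes), and at an unadjusted p under 0.05 there were 14 higher and 2 lower, against 8.48% and 7.73% of all tested genes. DESeq2 and limma-voom each called 1 of the 43, which was Cenpf, beside 3.26% and 6.52% of all tested genes. Fold changes lay above 0 for 32 of 43, with a median of 0.63 against 0.01 over all tested genes, and for 25 of the 27 late genes, with a median of 0.93. This count did not show in separated libraries: only Aurka had all TAC hearts above all sham hearts, which is 1 of 43 against 13.4% of all tested genes, and Ccnd1, Cenpa and Cenpf had all TAC hearts below, 3 of 43 against 13.7%.

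The single hearts of the WT TAC group were far apart. Mki67 stood at 14.3, 1.40 and 10.8 CPM in WT TAC replicates 1, 3 and 5, so 1 heart lay below all WT sham hearts and the others above them (log2 0.85 ± 0.54, edgeR adjusted p = 0.431). Top2a stood at 4.97, 0.538 and 7.41 CPM in the same order (log2 0.63 ± 0.59, edgeR adjusted p = 0.591), Cdk1 at 2.95, 0.376 and 2.40 CPM (log2 1.37 ± 0.55, edgeR adjusted p = 0.263). The sum of 25 late genes, leaving out Cenpa and Cenpf because of their opposite values, was 77.0, 18.8 and 72.7 CPM in WT TAC against 24.6 to 33.8 CPM in WT sham libraries. With limma-voom, which weights the samples, the Mki67 and Top2a differences turned to −0.05 and −0.30. The median over the 43 genes was 0.91 without WT TAC replicate 3 and 0.33 without replicate 1.

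On the higher side, the late genes with the smallest p showed the same 2 hearts high. Tpx2, an activator of Aurora A on the spindle, stood at 1.16, 0.999 and 1.24 CPM in the WT sham hearts and at 3.44, 1.18 and 3.54 CPM after TAC (log2 1.26 ± 0.38, edgeR adjusted p = 0.188). Ccnb1 stood at 1.62, 0.323 and 1.91 CPM in WT TAC (log2 1.76 ± 0.54, edgeR adjusted p = 0.190). Birc5, the passenger complex protein survivin, stood at 0.529, 0.590 and 0.696 CPM in the WT sham hearts and at 2.85, 0.430 and 2.34 CPM after TAC (log2 1.62 ± 0.51, edgeR adjusted p = 0.193). In each of the 3 genes replicate 3 lay within or below the WT sham range. Without WT TAC replicate 3 Birc5 passed the test, at 2.08 with an edgeR adjusted p of 0.0422, as 1 gene of the 43, beside 0.0431% of all tested genes called higher in that fit.

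On the lower side, Cenpf stood at −1.47 ± 0.31 (edgeR adjusted p = 0.0990) with all 3 WT TAC hearts below all WT sham hearts, replicate 3 included. Ccnd1, the cyclin D1 gene that links growth signals to the cycle, stood at 51.1, 39.4 and 50.7 CPM in the WT sham hearts and at 20.7, 29.0 and 35.4 CPM after TAC (log2 −0.73 ± 0.28, edgeR adjusted p = 0.246). Without KO sham replicate 1, which is in neither of these groups but enters the shared estimate of spread, Cenpf fell by 1.48 (edgeR adjusted p = 0.0129) and Ccnd1 fell by 0.73 (0.0499). These were 2 of the 43 genes on the lower side, beside 3.14% of all tested genes. Ccne1, a cyclin of the G1 to S transition, stood at 1.43, 1.45 and 0.544 CPM in WT TAC against 0.318 to 0.547 CPM in WT sham libraries (log2 1.47 ± 0.53, edgeR adjusted p = 0.228). Unlike the late genes, it was high in replicates 1 and 3 and not in replicate 5.

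TAC against sham in KO had most fold changes of the 43 genes below 0. None of the 43 passed the edgeR test over all libraries, beside 0.0% of all tested genes, while 10 of the 43 lay on the lower side and 0 on the higher side at an unadjusted p under 0.05, against 19.5% and 11.4% of all tested genes. DESeq2 called 3 of the 43 and limma-voom 13, beside 11.8% and 63.2% of all tested genes, so neither share was above the background. Fold changes lay below 0 for 31 of 43, with a median of −0.31 against −0.02 over all tested genes. For 13 of the 43 every KO TAC heart was below every KO sham heart, against 10.8% of all tested genes, and for 1 gene, Birc5, every one was above, against 11.6%. Without KO sham replicate 1 the counts were 16 of 43 lower, against 37.0% of all tested genes, and 5 of 43 higher, against 35.9%, so the share on the lower side was then near the background.

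Genes of DNA replication had the smallest p here. Mcm4, a helicase subunit, stood at 7.99, 7.60 and 8.48 CPM in KO sham and at 6.62, 4.77 and 4.39 CPM in KO TAC libraries (log2 −0.61 ± 0.19, edgeR adjusted p = 0.103). Mcm2, of the same helicase, stood at 4.71, 5.18 and 6.28 CPM in KO sham and at 3.10, 2.35 and 3.87 CPM in KO TAC (log2 −0.79 ± 0.25, edgeR adjusted p = 0.103). Both had every KO TAC heart below every KO sham heart. Tk1, a thymidine kinase of the salvage pathway, stood at 5.53, 6.53 and 6.75 CPM in KO sham and at 4.41, 4.30 and 4.46 CPM in KO TAC (log2 −0.52 ± 0.16, edgeR adjusted p = 0.103). Pcna stood at 22.4, 28.1 and 31.3 CPM in KO sham and at 19.3, 19.2 and 18.8 CPM in KO TAC (log2 −0.51 ± 0.17, edgeR adjusted p = 0.103). The 3 KO TAC hearts were close to each other in both genes, and lower than any KO sham heart.

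Without KO sham replicate 1 this comparison moved most, with 9 of the 43 past the test. Ccnd1 fell by 1.11, Mcm2 by 0.88, Pcna by 0.64, Mcm4 by 0.62, Tk1 by 0.60 and Rrm1, a subunit of ribonucleotide reductase, by 0.57. The late genes Kif20a and Prc1 fell by 1.20 and 0.80. These 8 had edgeR adjusted p from 0.00184 to 0.0327, and 8 of 43 stands beside 25.2% of all tested genes called on the lower side in that fit. Tyms, the thymidylate synthase gene, rose by 1.26 (edgeR adjusted p = 0.00341), 1 of 43 beside 22.4% of all tested genes on the higher side. Neither share of the 43 is above the background. Tyms shows what the library decides: it stood at 6.48 CPM in KO sham replicate 1 against 2.18 and 2.39 CPM in replicates 2 and 3, and at 4.48, 5.09 and 6.88 CPM in KO TAC libraries. Ccnd1 stood at 32.2 CPM in KO sham replicate 1 against 52.3 and 75.1 CPM in replicates 2 and 3, and at 33.9, 26.1 and 28.9 CPM in KO TAC libraries. Rrm1 stood at 9.90, 13.9 and 14.9 CPM in KO sham and at 9.93, 9.78 and 9.51 CPM in KO TAC libraries. In all 3 genes KO sham replicate 1 had the KO TAC level.

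Late genes were divided in this respect. Plk1, a mitotic kinase, stood at 1.91 CPM in KO sham replicate 1 against 0.698 and 0.703 CPM in replicates 2 and 3, and at 1.72 to 1.88 CPM in KO TAC libraries, and Kif20a in that replicate was likewise nearer to KO TAC, at 0.861 to 0.965 CPM, than to the other KO sham hearts. Mki67 stood at 8.90, 10.6 and 9.77 CPM in KO TAC, all below KO sham replicates 1 and 3 (log2 −0.34 ± 0.53). Top2a stood at 2.76, 2.19 and 2.69 CPM in KO TAC, below all KO sham hearts and within the WT sham range (log2 −1.34 ± 0.61, edgeR adjusted p = 0.158). Cdk1 stood at 2.62, 2.27 and 1.77 CPM and Kif11 at 2.48, 2.66 and 3.93 CPM in KO TAC, so both overlapped KO sham and lay above every WT sham heart. The sum of 25 late genes was 49.3, 53.7 and 55.9 CPM in KO TAC, all under the KO sham values of 74.6, 56.1 and 72.6 CPM.

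KO against WT after TAC compares the 2 genotypes under overload. Here 20.4% of all tested genes passed the edgeR test, and 0 of the 43 did; DESeq2 called 3 and limma-voom 8, beside 30.2% and 48.4% of all tested genes. At an unadjusted p under 0.05 there were 3 of the 43 on each side, against 18.2% of all tested genes on the higher and 22.6% on the lower side. The fold changes were split, 21 above and 22 below 0, with a median of −0.09 against −0.02. Every KO TAC heart was above every WT TAC heart for 4 genes (Mcm3, Mcm6, Cdc6 and Tyms), against 22.7% of all tested genes, and below for 2 (Pcna and Cenpf), against 24.3%. The 4 were all genes of G1 to S phase, but 4 of 16 is a share near the 22.7% of all tested genes. With WT TAC replicate 3 low and replicates 1 and 5 high, no late gene but Cenpf separated the genotypes here.

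Cenpf had the smallest p, at −0.98 ± 0.32 (edgeR adjusted p = 0.0513), from the levels given above. Ccne1 stood at 0.0690, 0.548 and 0.459 CPM in KO TAC against 1.43, 1.45 and 0.544 CPM in WT TAC (log2 −1.67 ± 0.57, edgeR adjusted p = 0.0547), with replicate 3 of KO TAC overlapping replicate 5 of WT TAC. These Ccne1 values come from 1, 7 and 7 reads in KO TAC and 29, 27 and 10 reads in WT TAC. Tyms stood at 3.54, 1.94 and 2.40 CPM in WT TAC, all below KO TAC (log2 1.06 ± 0.39, edgeR adjusted p = 0.0698). Mcm6 stood at 10.5, 7.10 and 9.15 CPM in WT TAC and at 11.9, 11.3 and 13.0 CPM in KO TAC (log2 0.44 ± 0.18, edgeR adjusted p = 0.0933). All 4 lay near the threshold and 3 of them crossed it when KO sham replicate 1 was left out. Cenpf then fell by 0.98 (edgeR adjusted p = 0.0164) and Ccne1 fell by 1.68 (0.0286), 2 of 43 beside 22.1% of all tested genes. Tyms rose by 1.06 (0.00534), 1 of 43 beside 18.5%. Without WT TAC replicate 1, 5 of the 43 passed: Tyms, Cdc6 and Mcm6 on the higher side, beside 15.6% of all tested genes, and Cenpf and Pcna on the lower, beside 18%.

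**Figure D4:**
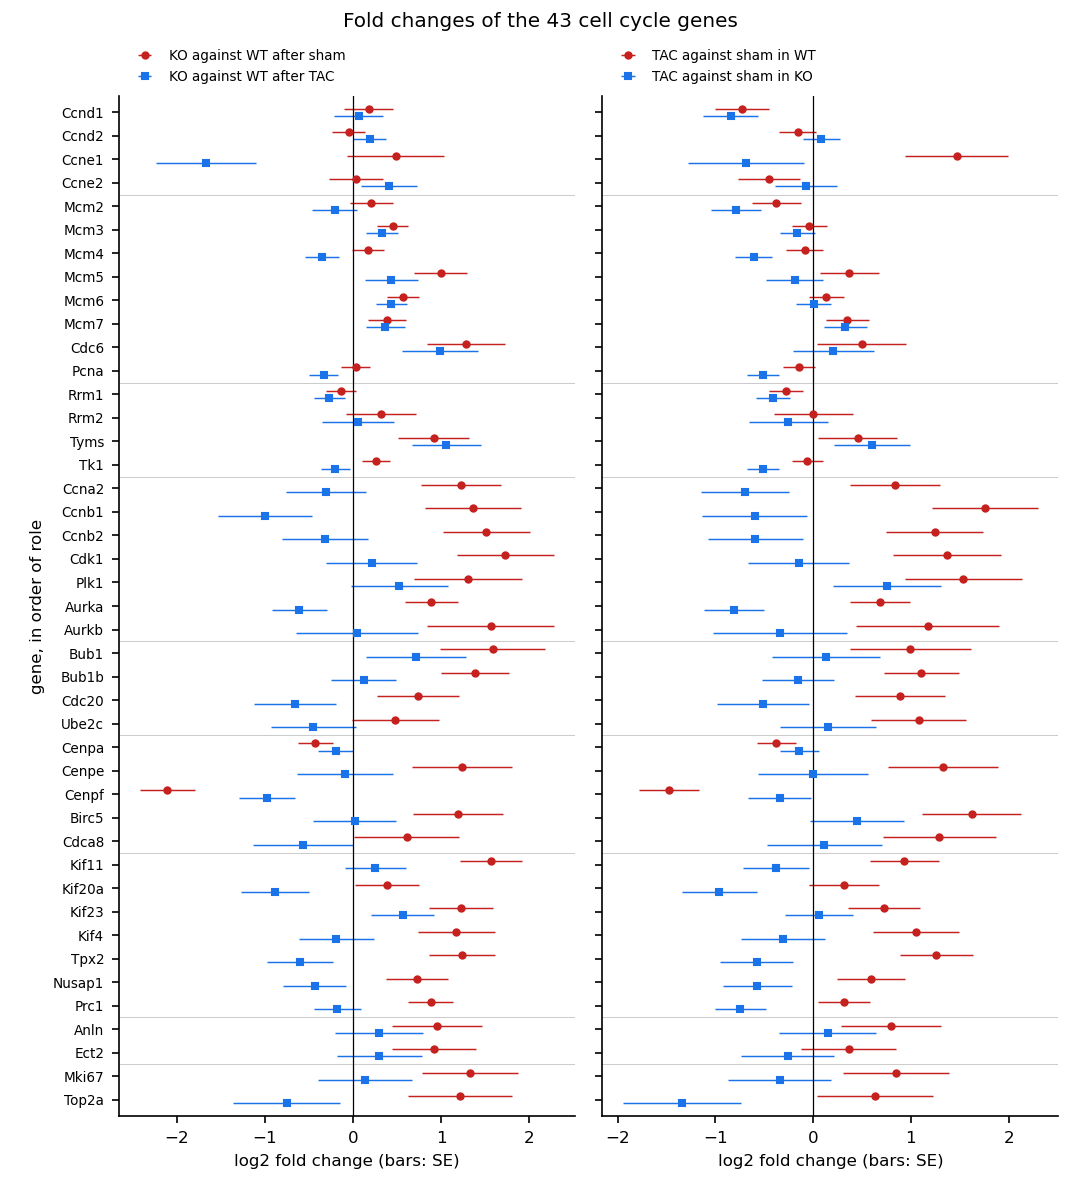
Points are log2 fold changes of the 43 genes, in order of role on the y axis, with SE bars; the left panel compares KO with WT after sham (circles) and after TAC (squares), the right panel TAC with sham in WT (circles) and in KO (squares). From Ccna2 down to Top2a the circles lie right of 0 except for Cenpf and Cenpa, and the squares lie on both sides of it.

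The interaction, in which the WT response to TAC is subtracted from the KO response, was tested directly. None of the 43 passed in the edgeR test, beside 0.0% of all tested genes; 13 lay on the lower and 1 on the higher side at an unadjusted p under 0.05, against 5.66% and 3.52% of all tested genes. DESeq2 called 0 of the 43, beside 0.595% of all tested genes, and limma-voom called 9, beside 32.0%. Fold changes lay below 0 for 38 of 43, with a median of −0.87 against −0.07, and for the 27 late genes the median was −1.27. WT sham libraries enter this value and both comparisons that lean upward, so these are not separate observations. Tpx2 stood at −1.84 ± 0.53 (edgeR adjusted p = 0.410), Aurka at −1.49 ± 0.43 (0.418), Ccnb1 at −2.36 ± 0.76 (0.449) and Prc1 at −1.06 ± 0.37 (0.483). Tpx2 stood at 3.14, 2.05 and 2.90 CPM in KO sham and at 1.52, 2.11 and 1.77 CPM in KO TAC, so the KO groups overlapped slightly while WT sham was below all of them. Prc1 stood at 2.85, 1.77 and 2.83 CPM in WT TAC and at 2.21, 2.43 and 1.97 CPM in KO TAC, all KO TAC hearts lying below all KO sham hearts. Ccnb1 stood at 0.552, 0.861 and 0.524 CPM in KO TAC, also below all KO sham hearts. Without KO sham replicate 1, 0 of the 43 passed, beside 12.1% of all tested genes, with 14 at an unadjusted p under 0.05, against 30.6% of all tested genes. The median over the 27 late genes was then −1.17.

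Over the 12 libraries the genes most alike in log2 CPM were Cdc6 and Mcm6, which load and form the replicative helicase (Pearson r 0.97, Spearman 0.94, r without the 2 outermost libraries 0.96). Next came Kif4 and Ccnb2 (0.97, 0.93 and 0.95) and Tpx2 and Ccnb1 (0.94, 0.94 and 0.94). These are descriptions over 12 libraries that share groups and depth. With Mki67, 20 of the 26 other late genes had an r of 0.7 or more, against 4 of the 16 genes of G1 to S phase. A negative r was found for 9 of the other 42 genes.

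Genes of the wider pathway that are not among the 43 were counted by list. Of 31 other mitosis genes, such as condensins, kinetochore and midzone proteins, 28 lay above 0 in KO against WT after sham (median 1.1), 30 in TAC against sham in WT (median 0.89), and 1 in the interaction (median −1.04), with none past the edgeR test in these comparisons. Among them Kif22, a chromosome-arm kinesin, stood at 1.32, 0.635 and 1.14 CPM in WT sham and at 2.39, 1.97 and 2.90 CPM in KO sham (log2 1.23 ± 0.37, edgeR adjusted p = 0.269). Brakes on the cycle did not lean upward in KO against WT after sham, with 9 of 18 above 0. Cdkn1a, the p53 target and kinase inhibitor p21, was an exception. It stood at 21.5, 19.2 and 24.0 CPM in the WT sham hearts, 63.9, 66.9 and 32.1 CPM in WT TAC, 68.2, 40.9 and 80.1 CPM in KO sham, and 58.2, 74.6 and 67.4 CPM in KO TAC libraries. All 9 other hearts were above all WT sham hearts, and its log2 difference was 1.55 ± 0.29 in KO against WT after sham (edgeR adjusted p = 0.112) and 1.33 ± 0.29 in TAC against sham in WT (0.113, and 0.0226 without KO sham replicate 1). Within WT TAC, Cdkn1a was near equal in replicate 1 (63.9 CPM), where the late genes were high, and replicate 3 (66.9 CPM), where they were low. Its part in the late gene levels was not tested.

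After TAC, KO against WT was the only comparison in which genes of these lists passed over all libraries. On the lower side were 6 of 18 brakes, 1 of 16 E2F and MuvB factors, 2 of 32 other replication genes and 2 of 31 other mitosis genes; on the higher side were 2 other replication genes, and 0 of 12 other cyclins and kinases passed. Of all tested genes 11.7% were called lower and 8.63% higher. Among brakes, the INK4 inhibitors Cdkn2d and Cdkn2c fell by 0.92 (edgeR adjusted p = 0.0165) and 0.97 (0.0245), Ccng1 fell by 1.68 (0.0299) and Gadd45a fell by 1.04 (0.0360). Gmnn, geminin, which blocks a second round of licensing, stood at 34.3, 39.1 and 37.5 CPM in WT TAC and at 8.90, 11.2 and 12.4 CPM in KO TAC, and fell by 1.77 (edgeR adjusted p = 0.0116). It was at 9.21 CPM in KO sham replicate 1 and at 22.2 and 23.1 CPM in the other KO sham hearts. Tfdp2, a partner of E2F proteins, fell by 1.31 (0.0187), and Pttg1, securin, fell by 0.55 (0.0278). Pold1, the catalytic subunit of a replicative polymerase, rose by 0.70 (0.0367).

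Sums of cell type markers also differed between the hearts, and not all of them followed the late genes. The summed CPM of 7 macrophage markers ran from 97.5 to 112 in WT sham and from 138 to 150 in KO sham, was 149, 105 and 153 in WT TAC replicates 1, 3 and 5, and ran from 151 to 157 in KO TAC. The sum was low in the same 4 hearts as the late genes, but not every marker was. For 4 of the 7 every WT TAC heart, replicate 3 included, was above every WT sham heart, against 13.4% of all tested genes. For 1 of the 7 every WT TAC heart was below, against 13.7%. In KO against WT after sham all 7 fold changes lay above 0, and 0 passed the edgeR test, beside 0.00633% of all tested genes. For 2 of the 7 every KO sham heart was above every WT sham heart, against 12.2% of all tested genes. Markers of activated fibroblasts (5 genes) summed to 46.5 to 67.5 CPM in WT sham, to 117, 79.4 and 410 CPM in WT TAC, to 398, 83.2 and 124 CPM in KO sham and to 216 to 269 CPM in KO TAC. Fibroblast markers (7 genes) ran from 894 to 1061 CPM in WT sham and from 1194 to 1567 CPM in KO sham. Endothelium markers (5 genes) ran from 730 to 966 CPM in WT sham and from 929 to 999 CPM in KO sham. After TAC they ran from 602 to 841 CPM in WT and from 791 to 814 CPM in KO. Cardiomyocyte markers (8 genes) ran from 57616 to 61416 CPM in WT sham and stood at 22741, 54163 and 50365 CPM in KO sham, with 27515 to 28897 CPM in KO TAC. Atrium markers (5 genes) varied most, from 81.3 to 1731 CPM within WT sham, from 251 to 545 CPM in WT TAC, from 263 to 2987 CPM in KO sham, highest in replicate 1, and from 643 to 2354 CPM in KO TAC. In KO against WT after TAC, 4 of 5 atrium and 4 of 4 adipocyte markers passed the edgeR test on the higher side, against 8.63% of all tested genes. For 4 of 4 mesothelium markers every KO TAC heart was above every WT TAC heart, against 22.7% of all tested genes. The median log2 differences of atrium, adipocyte and mesothelium markers were 7.76, 4.56 and 3.68. The part of these cell types in the results was not tested.

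Markers of thymocytes, which divide fast, were near 0 in 10 of the 12 libraries. The thymocyte genes Dntt and Rag1 had 24 counts each in KO sham replicate 1 and 11 and 13 in KO TAC replicate 5, and at most 1 in any other library. The summed CPM of the 6 thymocyte markers was 4.78, 0.164 and 0.0937 in KO sham replicates 1, 2 and 3. Their part in the results was not tested. T cell markers (6 genes) summed to 0.795 to 5.18 CPM over all libraries and B cell markers (5 genes) to 2.10 to 7.98 CPM.

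**Figure D5:**
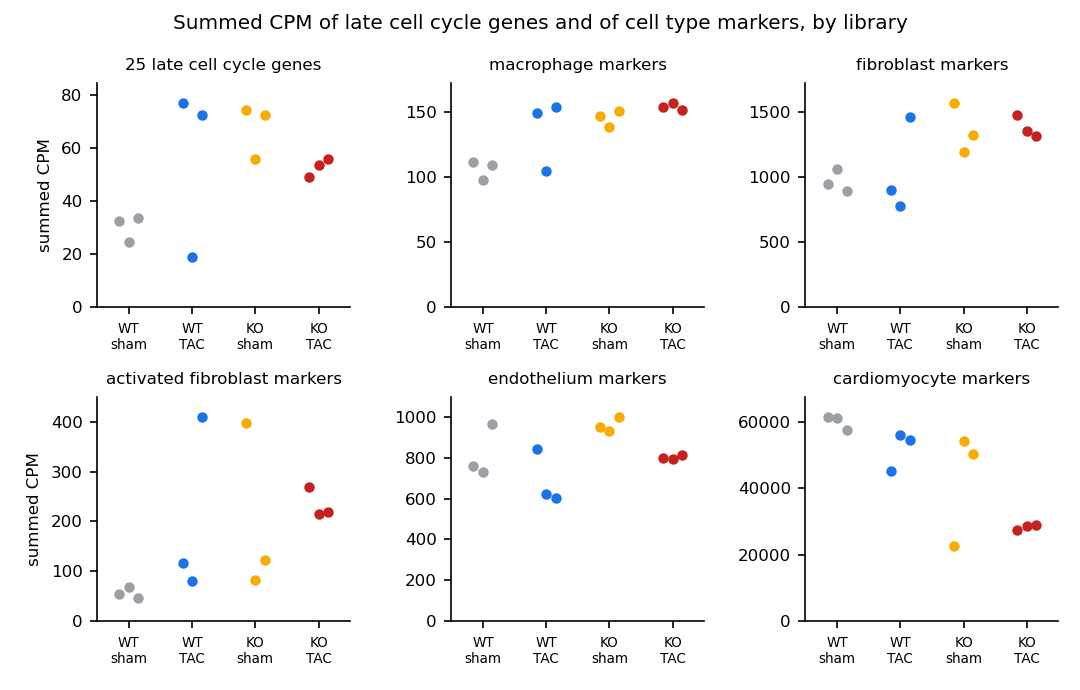
Points are single hearts, with summed CPM on linear y axes from 0 and the 4 groups on the x axis; the first panel sums 25 late cell cycle genes (without Cenpa and Cenpf) and the others sum marker genes of 5 cell types. The late genes and the macrophage markers are both low in the 3 WT sham hearts and in WT TAC replicate 3, while the cardiomyocyte markers are low in KO sham replicate 1 and the KO TAC hearts.

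The sources used here do not state whether counting used the strand, so counts of genes that share exons with a neighbour are uncertain. In the reference annotation this holds for 12 of the 43 genes with a neighbour of at least 50 counts: Ccnd1, Ccnd2, Ccne2, Mcm7, Tk1, Ccna2, Cdc20, Cdca8, Kif20a, Kif4, Nusap1 and Prc1. The share is largest for Kif20a, of whose exons 29.3% overlap Cdc23, a gene with 4838 counts over the 12 libraries against 331 for Kif20a itself. Of the genes whose values are given above, Cenpf, Mki67, Cdk1, Kif11, Bub1b and Mcm6 overlap no exon of another gene there.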

How the data were processed

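Poly(A) RNA of 12 mouse hearts was read as 150 bp pairs, per the labels' protocols. The deposited table holds raw read counts per Ensembl gene, made by the authors from HISAT2 alignments, per the submitters' processing notes. The sources used here do not give the counter, genome build or strand setting. Symbols and exon lengths came from a GENCODE annotation of GRCm38, which paired 52081 of 55357 identifiers, and 0 columns were left without a sample. The members and gene lists were chosen with earlier results of these data known.

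Genes passing edgeR's filter by group (15804) were fitted with 1 coefficient per group by edgeR's robust quasi-likelihood test (edgeR 4.0.16, R 4.3.3, TMM scaling, 8 residual degrees of freedom). P-values were adjusted by Benjamini-Hochberg over all tested genes in each of 5 comparisons, with a threshold of 0.05. CPM values are TMM-scaled. Total counts, 14150109 to 22602225 per library, leave genes under 1 CPM with few reads, and counting error alone is then large. Alternatives were DESeq2 (1.42.0), limma-voom with sample weights (limma 3.58.1), other scalings and filters, mitochondrial transcripts left out, the compared groups alone, a replicate block, and each library left out. The test was checked on simulated counts.

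All 43 genes could be named. Values in every library were set for Mki67, Top2a, Cdk1, Ccnb1, Pcna, Mcm2, Ccnd1, Ccnd2, the 4 genes with the smallest p in each comparison and those past the test; of each wider list, up to 4 genes past the test, or else the 2 with the smallest p. Values of other genes, the 6 start regions and the sum of 25 late genes were picked after values were seen.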

Additional observations from a re-analysis of the deposited data

Results flagged for a closer look

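Aurka, the Aurora A kinase of spindle poles, had fold changes of opposite sign in the 2 genotypes, from few reads. It stood at 0.847, 0.817 and 0.795 CPM in the WT sham hearts and at 1.57, 0.914 and 1.47 CPM after TAC, so every TAC heart was above every sham heart. WT TAC replicate 3 had 17 reads, against 16, 18 and 16 in WT sham, so its place above WT sham replicate 2 rests on library scaling. In KO Aurka stood at 1.71, 1.15 and 1.73 CPM after sham and at 0.896, 0.704 and 0.983 CPM after TAC, so every TAC heart was below. These were 25, 28 and 37 reads after sham and 13, 9 and 15 after TAC. The difference of the 2 responses was −1.49 on the log2 scale (SE 0.43), with an edgeR adjusted p of 0.418, so it did not pass the test.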

How the results depend on the processing

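The count of the 43 genes past the test was 0 in every comparison and depended on the method, as did the share of all tested genes called, given in parentheses. In TAC against sham in WT it was 1 with DESeq2 (3.26%), with limma-voom (6.52%), without the filter on low counts (0.427%) and with KO sham replicate 1 and WT TAC replicate 1 both left out (6.18%), and 0 to 2 with single libraries left out. In TAC against sham in KO it was 3 with DESeq2 (11.8%), 13 with limma-voom (63.2%), 1 without the filter (2.14%) and 11 with both libraries left out (55.5%), and 0 to 9 with single libraries left out; its median was −0.47 with library totals in place of TMM. In KO against WT after sham it was 2 with DESeq2 (1.31%), 25 with limma-voom (14.9%), 2 without the filter (0.249%), 1 with both left out (1.84%) and 0 to 1 with single libraries left out. In KO against WT after TAC it was 3 with DESeq2 (30.2%), 8 with limma-voom (48.4%), 3 without the filter (8.88%), 10 with both left out (53.8%), 2 with the compared groups only (30.2%), 2 with library totals (22.3%), 1 without mitochondrial transcripts (19.7%) and 0 to 5 with single libraries left out. In the interaction it was 9 with limma-voom (32.0%), 5 with both left out (36.1%) and 0 with any single library left out; the compared-groups fit was not run there.

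With a replicate block 0 of the 43 passed in all 5 comparisons, and the medians were 0.27, −0.40, 0.88, 0.02 and −0.70 in the order of TAC in WT, TAC in KO, KO against WT after sham, after TAC, and the interaction. The samples share only a number: over 14 pairs of equal numbers the deviations correlated at −0.19 to 0.62.

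In TAC against sham in WT, Mki67 turned to −0.048 with limma-voom. Top2a turned to −0.30 with limma-voom, to −0.0082 with the replicate block, and ranged from −0.0039 (without WT TAC replicate 5) to 1.15 (without WT TAC replicate 3). The cause of these shifts was not tested. Over all alternatives the median ran from 0.74 to 1.01 in KO against WT after sham, from 0.27 to 0.91 for TAC in WT, from −0.47 to −0.22 for TAC in KO, from −0.35 to 0.14 in KO against WT after TAC and from −1.25 to −0.54 in the interaction. Of 584 single-gene values under alternatives, 513 kept direction and side of the threshold, 67 newly passed it and 4 turned direction. At under 1 CPM a few reads set a gene's value, which limits 15 of the 43 genes.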

Other observations

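Values of 2 regulators outside the 43 genes, chosen after their values were seen, are given here. The E2F and MuvB list to which E2f7 belongs had 10 of 16 genes above 0 in KO against WT after sham (median log2 0.17). E2f7, a repressor of the E2F family, stood at 0.953, 0.999 and 1.54 CPM in WT sham hearts, at 2.70, 1.83 and 2.02 CPM in WT after TAC, at 3.28, 1.85 and 3.89 CPM in KO sham and at 4.62, 3.60 and 4.07 CPM in KO after TAC. All 9 other hearts were above the WT sham hearts, WT TAC replicate 3 included (KO against WT after sham: log2 1.36 ± 0.32 SE, edgeR adjusted p = 0.220). Cdc25b, a phosphatase that activates cyclin-dependent kinases, stood at 2.09 to 2.49 CPM in WT sham and at 7.67, 4.999 and 5.66 CPM in WT after TAC (log2 1.45 ± 0.36, edgeR adjusted p = 0.138), without overlap. In KO it stood at 9.08 CPM in sham replicate 1 against 3.08 and 3.61 CPM in replicates 2 and 3, and at 8.14 to 9.18 CPM after TAC, so replicate 1 again had the KO TAC level.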
